A study of Homo sapiens with 12 samples.

Results

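The genes described here are those of the cereblon ubiquitin ligase, of proteins it destroys when a drug of the thalidomide class is bound to it, and a relative of these. The cells were MM.1S, a human multiple myeloma cell line. The 9 genes were listed by function, with no measured value in the rule, although earlier results of these data were known when the list was drawn up: the receptor CRBN (ENSG00000113851_at), the adaptor DDB1 (ENSG00000167986_at), the scaffold CUL4A (ENSG00000139842_at), the RING subunit RBX1 (ENSG00000100387_at), the drug substrates IKZF1 (ENSG00000185811_at), IKZF3 (ENSG00000161405_at), ZFP91 (ENSG00000186660_at) and CSNK1A1 (ENSG00000113712_at), and IKZF2 (ENSG00000030419_at), listed as a relative of IKZF1 and not as a drug substrate. The substrates were listed for the drug class, and whether pomalidomide acts on each of them in these cells was not tested. Of the 17710 gene rows of the arrays, 8 belonged to these genes, and ZFP91 was not analysed here. The study asked how gene expression changed when the PIM kinase inhibitor PIM447 was added to the myeloma treatment pomalidomide plus dexamethasone. There were 4 groups of 3 arrays, the arrays of a group coming from separate experiments: untreated cells (Control), PIM447 at 100 nM for 24 h (PIM), pomalidomide at 200 nM with dexamethasone at 5 nM for 15 h (Pd), and all of these drugs at the same doses for 10 h (PIM-Pd). The exposure time differed between the treated groups, so drug and time cannot be told apart in any comparison, and all results are from a single cell line. No group received pomalidomide or dexamethasone alone, so a change in Pd or PIM-Pd cannot be credited to either drug.

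Cereblon is the substrate receptor of a ligase in which DDB1 links the receptor to the cullin scaffold CUL4A, and RBX1 brings in the enzyme that carries ubiquitin. Pomalidomide binds cereblon and changes which proteins it recognises, so that zinc finger proteins such as Ikaros (IKZF1) and Aiolos (IKZF3) are tagged and degraded. Myeloma cells rely on both of these transcription factors, and the loss of the proteins is known to be followed by lower IRF4 and MYC. The arrays measured mRNA and not protein, so the degradation itself is outside these data.

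The promoter windows of IKZF1 and CRBN are printed because these were the drug substrate and the ligase subunit with the largest called differences from Control. Promoter windows were read for 8 of the 9 genes, all but IKZF3. Each is the 250 bases before the RefSeq gene start in GRCh38.p14, read 5′ to 3′ on the strand of the gene. IKZF1 is at chr7:50304466-50304715 on the plus strand and CRBN at chr3:3179718-3179967 on the minus strand. Capitals mark the Ikaros core letters GGGAA or TTCCC.
IKZF1: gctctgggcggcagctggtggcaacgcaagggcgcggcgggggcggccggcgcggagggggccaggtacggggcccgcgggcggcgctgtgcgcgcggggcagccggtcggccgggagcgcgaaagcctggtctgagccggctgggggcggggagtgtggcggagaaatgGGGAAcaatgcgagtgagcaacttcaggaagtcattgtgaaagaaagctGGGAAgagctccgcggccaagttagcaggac
CRBN: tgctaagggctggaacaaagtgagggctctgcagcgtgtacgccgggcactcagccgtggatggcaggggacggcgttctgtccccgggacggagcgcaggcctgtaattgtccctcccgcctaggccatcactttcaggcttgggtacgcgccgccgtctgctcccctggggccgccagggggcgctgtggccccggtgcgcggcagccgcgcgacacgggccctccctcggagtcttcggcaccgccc
The IKZF1 window held 2 matches to the core and the CRBN window 0. A core this short is common, and 58.7% of the 27305 promoter windows of this length held it on one strand or the other. The other motifs searched were a glucocorticoid receptor half-site (AGAACA or TGTTCT), held by 12.4% of all windows, and the E-box CACGTG, held by 6.49%. Of these 8 genes, none held the half-site and RBX1 alone held an E-box. The DDB1 window held 1 Ikaros core and the ZFP91 window 3. No binding was measured in these cells.

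The normalization had put all arrays on one distribution, so the array medians, between 4.81 and 4.89 on the log2 scale, do not measure depth of signal. Correlations lay between 0.977 and 0.993 for every pair of arrays. On the second principal component, which held 15.0% of the variance, PIM-Pd replicate 1 lay at 26.2, PIM replicates 1 and 2 at up to 15.0, and the other arrays below 0.25. The glucocorticoid target genes TSC22D3 and FKBP5 separated the groups as labelled, and a further target gene, KLF9, did not. These rows could be named only through the study's tables of genes changed on the same samples. They are therefore not an independent check of the labels. PER1, also looked for, had no named row and was not read. TSC22D3 lay between 8.25 and 9.06 in the 6 arrays that had received dexamethasone and between 5.20 and 6.27 in the other 6. FKBP5 lay between 9.81 and 10.37 in the former and between 7.59 and 8.51 in the latter. KLF9 was 0.55 higher in PIM-Pd than in Control on the log2 scale (limma adjusted p = 0.028), but in Pd the difference was 0.32 (limma adjusted p = 0.28), and Pd replicate 2 at 4.66 lay below Control replicate 2 at 4.93. The plasma cell genes CD38 (8.16 to 9.03), SLAMF7 (9.37 to 10.13) and IRF4 (8.89 to 10.24) gave high signals in all 12 arrays. The T cell gene CD3E lay between 3.82 and 4.88, and its row mean stood at the 41.1st percentile of all row means. Only these markers could be named, through the same tables of changed genes. SDC1, TNFRSF17, XBP1, PRDM1, other T cell genes and all B cell, monocyte and erythroid genes looked for were not read. The markers therefore give no full check of cell type.

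IKZF1 showed the largest difference from Control of the 8 genes in both groups that had received pomalidomide and dexamethasone. Its mRNA rose by 1.88-fold with Pd and by 1.80-fold with PIM-Pd, and in both groups every array lay above every Control and PIM array. CRBN rose by 1.437-fold and IKZF3 by 1.38-fold with PIM-Pd, while IKZF2, CSNK1A1, DDB1, CUL4A and RBX1 did not pass the test in any comparison of the unpaired fit. CUL4A passed it in PIM-Pd against Control with the replicate number as a block (log2 difference -0.42, limma adjusted p = 0.0412). No member passed the test with PIM447 alone. In limma with Benjamini-Hochberg adjustment over all rows, 1 of 8 members was called higher in Pd, beside 3.48% of all rows, and 3 of 8 were called higher in PIM-Pd, beside 4.42% of all rows. The median log2 difference of the 8 genes was 0.17 in Pd and 0.22 in PIM-Pd, against -0.0089 and 0.0084 over all rows. Pd and PIM-Pd were compared with the same 3 Control arrays. RMA puts all arrays on one distribution, so a change in amount per cell and a change relative to the rest of the RNA cannot be told apart.

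**Figure D1:**
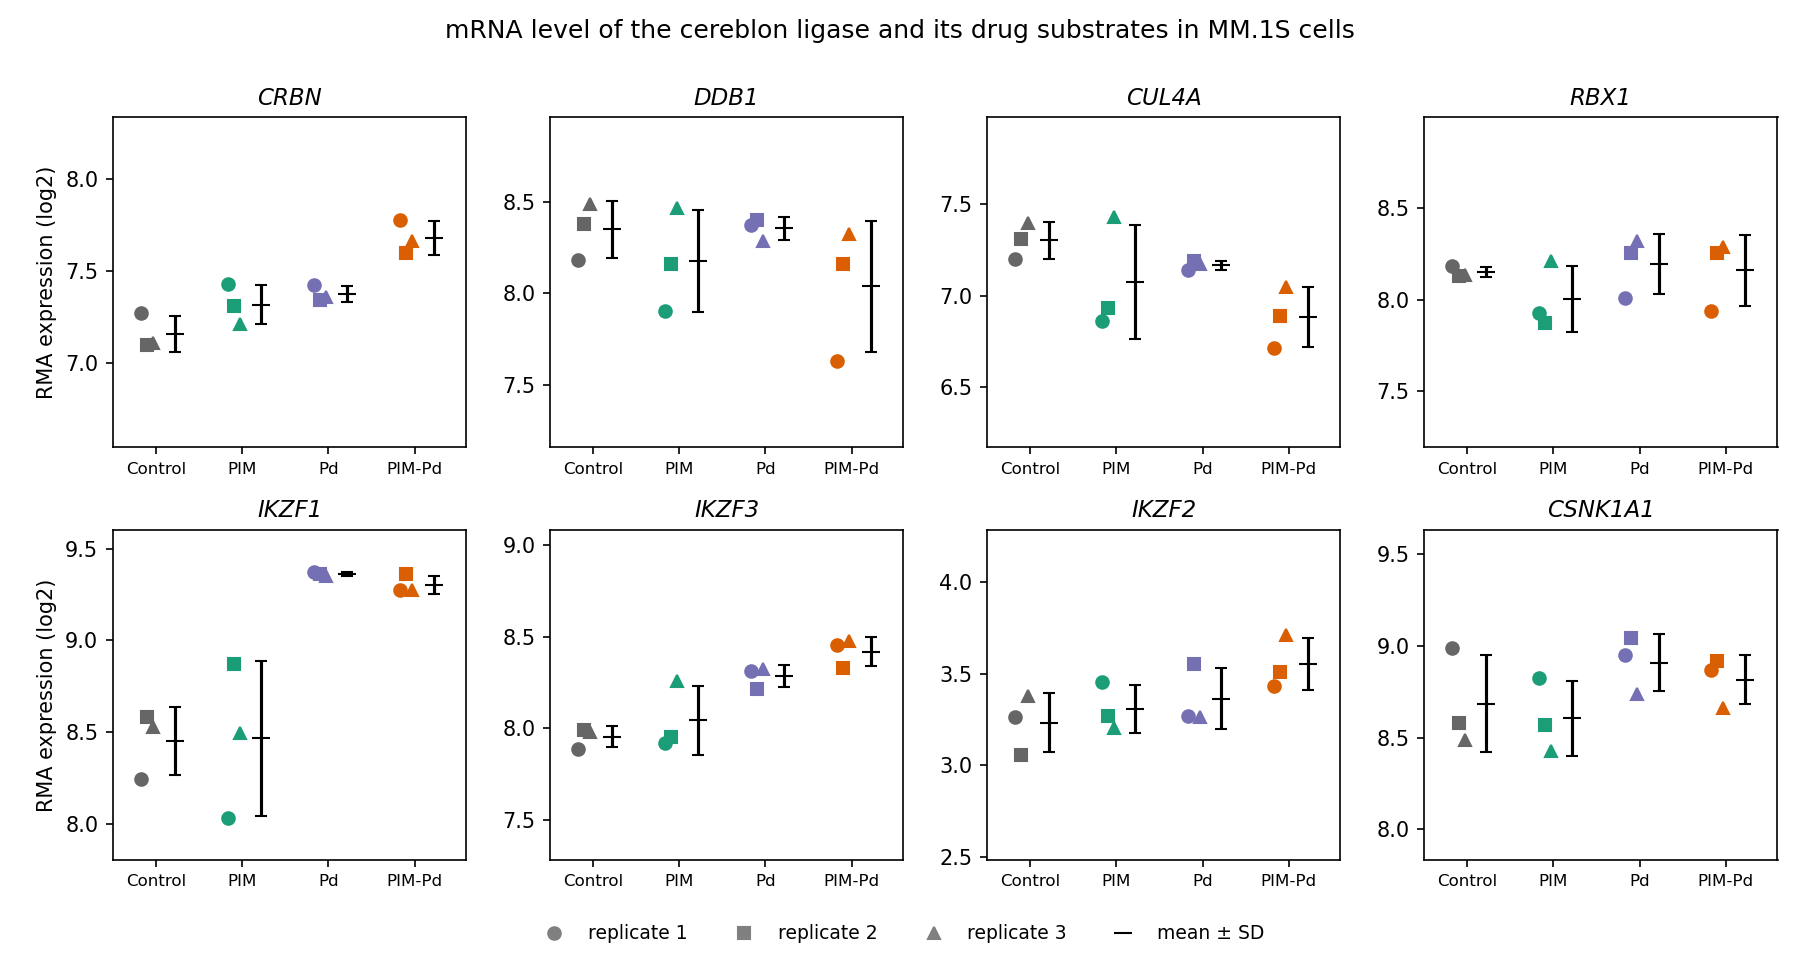
RMA expression on the log2 scale of the 8 measured genes (vertical axes, each spanning the same number of log2 units) in the 4 groups, with one symbol per array and the mean ± SD of 3 arrays beside it. IKZF1 lies between 9.27 and 9.38 in all Pd and PIM-Pd arrays and between 8.03 and 8.87 in the others, and CRBN is highest in the 3 PIM-Pd arrays.

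Among the ligase subunits, CRBN, the receptor that binds the drug, was the only one called in the unpaired fit. Its level was 7.27, 7.10 and 7.10 in Control replicates 1 to 3, 7.43, 7.31 and 7.21 in PIM, 7.42, 7.34 and 7.36 in Pd, and 7.78, 7.60 and 7.67 in PIM-Pd. All 3 PIM-Pd arrays lay above the other 9, and the Pd arrays lay above Control but overlapped with PIM. CRBN was 0.52 higher on the log2 scale in PIM-Pd than in Control (SE 0.11, 95% confidence interval 0.30 to 0.75, limma adjusted p = 0.0053). By replicate number the difference was 0.51, 0.50 and 0.56. The call held in all 19 alternative fits, with adjusted p between 0.0040 and 0.028.

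CRBN did not pass the test in Pd against Control (log2 difference 0.22, limma adjusted p = 0.32) or in PIM against Control (0.16, limma adjusted p = 0.86). PIM-Pd exceeded Pd by 0.31 (95% confidence interval 0.08 to 0.53, limma adjusted p = 0.42), without overlap of the arrays. Of all rows, 6.66% lay wholly higher in PIM-Pd than in Pd. PIM-Pd exceeded PIM by 0.36 (95% confidence interval 0.14 to 0.59), with a limma adjusted p of 0.0588 in the unpaired fit and 0.0421 with the replicate number as a block. The mean order was Control, PIM, Pd and PIM-Pd, and of the neighbouring groups in that order PIM and Pd overlapped, as did Control and PIM.

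CUL4A, the cullin scaffold among the members, was 7.20, 7.31 and 7.40 in Control, 6.86, 6.93 and 7.43 in PIM, 7.14, 7.19 and 7.17 in Pd, and 6.72, 6.89 and 7.05 in PIM-Pd. CUL4B, listed among the other core factors of such ligases, had no named row, so its level was not read. The PIM-Pd and Pd arrays lay below all Control arrays, and the PIM arrays were split, with replicate 3 above every other array. The log2 difference between PIM-Pd and Control was -0.42 (SE 0.14, 95% confidence interval -0.72 to -0.11). This missed the threshold in the unpaired limma fit (adjusted p = 0.0891) and passed it with the replicate number as a block (adjusted p = 0.0412), where 5.86% of all rows were called lower. It also passed without PIM replicate 3 (limma adjusted p = 0.0295), an array in neither group of the comparison.

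DDB1, the adaptor between receptor and cullin, was 8.18, 8.38 and 8.49 in Control, 7.91, 8.16 and 8.47 in PIM, 8.37, 8.40 and 8.29 in Pd, and 7.63, 8.16 and 8.32 in PIM-Pd. The groups overlapped, and the low PIM-Pd mean came mainly from replicate 1. PIM-Pd differed from Control by -0.31 (95% confidence interval -0.68 to 0.06, limma adjusted p = 0.36). The 4 arrays with the lowest DDB1 were also the 4 with the lowest CUL4A, and they were PIM and PIM-Pd replicates 1 and 2. Of these, PIM replicates 1 and 2 and PIM-Pd replicate 1 were the arrays that stood high on the second principal component, and the part of that component in the CUL4A and DDB1 levels was not tested.

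**Figure D2:**
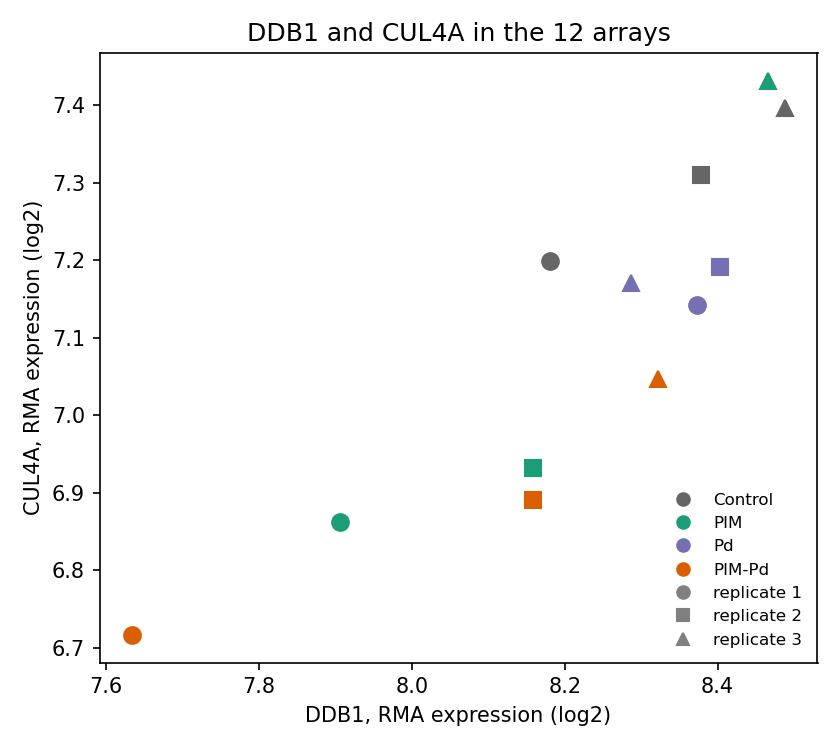
DDB1 (horizontal axis) against CUL4A (vertical axis) in RMA expression on the log2 scale, one point per array, with colour for the group and shape for the replicate number. PIM and PIM-Pd replicates 1 and 2 form the low end of both genes, and PIM-Pd replicate 1 is lowest in both, at 7.63 for DDB1 and 6.72 for CUL4A.

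RBX1, the RING subunit that recruits the ubiquitin-carrying enzyme, was 8.18, 8.13 and 8.14 in Control, 7.93, 7.87 and 8.21 in PIM, 8.01, 8.26 and 8.32 in Pd, and 7.94, 8.26 and 8.29 in PIM-Pd. All groups overlapped and no comparison passed the test. The difference from Control was -0.15 in PIM, 0.05 in Pd and 0.01 in PIM-Pd, and the 95% confidence interval for PIM-Pd ran from -0.27 to 0.29. The receptor, the scaffold and the RING subunit of one complex therefore had differences of 0.52, -0.42 and 0.01 in PIM-Pd against Control, and the differences between these subunits were not tested.

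Among the drug substrates, IKZF1, the Ikaros transcription factor, was 8.24, 8.58 and 8.53 in Control, 8.03, 8.87 and 8.50 in PIM, 9.38, 9.36 and 9.35 in Pd, and 9.27, 9.36 and 9.27 in PIM-Pd. The groups with pomalidomide and dexamethasone lay in a narrow band above all other arrays, with an SD of 0.013 in Pd and 0.052 in PIM-Pd, against 0.18 in Control and 0.42 in PIM. The log2 difference from Control was 0.91 in Pd (SE 0.17, 95% confidence interval 0.56 to 1.27, limma adjusted p = 0.0043). It was 0.85 in PIM-Pd (SE 0.17, 95% confidence interval 0.50 to 1.21, limma adjusted p = 0.0044). Both calls held in all 19 alternative fits, with adjusted p up to 0.029 and 0.027.

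IKZF1 was also higher in PIM-Pd than in PIM, by 0.84 on the log2 scale or 1.79-fold (limma adjusted p = 0.0078), and it was the 1 member of 8 called higher there, beside 2.95% of all rows. A fit to those 2 groups alone gave an adjusted p of 0.0538, and the other 18 alternative fits kept the call. With the replicate number as a block 2 of 8 members, IKZF1 and CRBN, were called higher there, beside 3.7% of all rows. PIM-Pd and Pd differed by -0.06 (95% confidence interval -0.42 to 0.30), and PIM and Control by 0.01 (95% confidence interval -0.34 to 0.37).

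IKZF3, the Aiolos transcription factor and close relative of Ikaros, was 7.89, 7.99 and 7.98 in Control, 7.92, 7.96 and 8.26 in PIM, 8.31, 8.21 and 8.33 in Pd, and 8.45, 8.33 and 8.47 in PIM-Pd. Every Pd array lay above every Control array, while PIM replicate 3 fell among the Pd arrays. The PIM-Pd and Pd arrays met without a clear gap, with the lowest PIM-Pd array at 8.329 and the highest Pd array at 8.326. IKZF3 was 0.46 higher in PIM-Pd than in Control (SE 0.11, 95% confidence interval 0.22 to 0.70, limma adjusted p = 0.0165). That call was lost without Control replicate 1 (adjusted p = 0.0677), without PIM-Pd replicate 1 (0.0510) and without PIM-Pd replicate 3 (0.0591).

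In Pd the IKZF3 difference from Control was 0.33 (95% confidence interval 0.09 to 0.57) and missed the threshold (limma adjusted p = 0.12). The difference between PIM-Pd and PIM was 0.37 (limma adjusted p = 0.0683), and it was called without PIM replicate 3 (adjusted p = 0.0229). PIM-Pd and Pd differed by 0.13 (95% confidence interval -0.11 to 0.37, limma adjusted p = 0.78).

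IKZF2, the Helios transcription factor best known from T cells, lay between 3.06 and 3.71 in all 12 arrays, and the mean of its row stood at the 16.3rd percentile of all row means. It was 3.26, 3.06 and 3.38 in Control, 3.45, 3.27 and 3.20 in PIM, 3.27, 3.55 and 3.26 in Pd, and 3.43, 3.51 and 3.71 in PIM-Pd. The PIM-Pd arrays lay just above the Control arrays, by 0.32 on average, and this did not pass the test (limma adjusted p = 0.16). The deposited values hold no detection call, so it was not tested whether a signal this low stood above background.

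CSNK1A1, which encodes casein kinase 1 alpha, was 8.99, 8.58 and 8.49 in Control, 8.83, 8.57 and 8.42 in PIM, 8.95, 9.04 and 8.74 in Pd, and 8.87, 8.92 and 8.66 in PIM-Pd. All groups overlapped. The difference from Control was 0.22 in Pd (95% confidence interval -0.09 to 0.54, limma adjusted p = 0.53) and 0.13 in PIM-Pd (95% confidence interval -0.19 to 0.45, limma adjusted p = 0.74). Whether its probes also read the close paralogue CSNK1A1L was not tested.

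**Figure D3:**
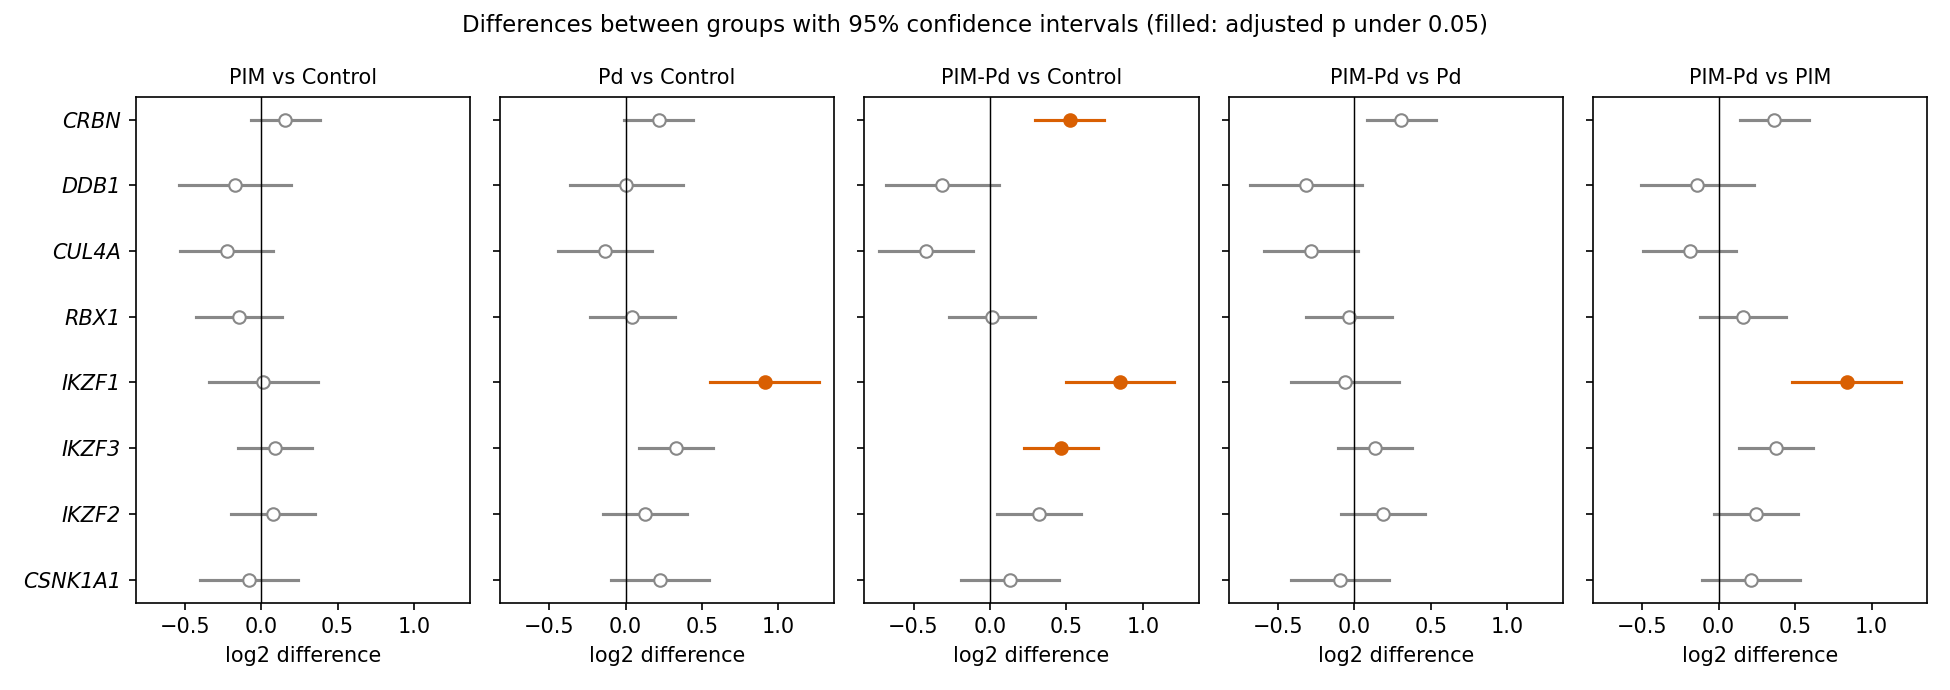
Log2 difference between groups (horizontal axes) of the 8 measured genes in the 5 comparisons, with the 95% confidence interval from limma as a line and filled points where the adjusted p over all rows was under 0.05. IKZF1 is filled in Pd and PIM-Pd against Control and in PIM-Pd against PIM, and CRBN and IKZF3 in PIM-Pd against Control.

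Without a test, the counts of genes whose groups did not overlap were as follows. Against Control, 3 of 8 members lay wholly higher in Pd (CRBN, IKZF1 and IKZF3), beside 12.4% of all rows, and 1 of 8 wholly lower (CUL4A), beside 12.3%. In PIM-Pd 4 of 8 lay wholly higher (the same genes and IKZF2), beside 12.2% of all rows, and 1 of 8 wholly lower (CUL4A), beside 12.5%.

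PIM447 alone left no row past the threshold: limma called 0% of the 17710 rows in PIM against Control, 1098 rows had an unadjusted p under 0.05, and none of the members was among them. The count of called rows was also 0 with the replicate number as a block. The differences of the members ran from -0.23 (CUL4A) to 0.16 (CRBN). Adding PIM447 to Pd, with the shorter exposure, gave 14 called rows in PIM-Pd against Pd, or 0.0791% of all rows, and no member was among these. There 1518 rows had an unadjusted p under 0.05 in limma, and of the members these included CRBN alone. In this comparison the confidence intervals of the members still allowed differences as far as -0.68 (DDB1) and 0.53 (CRBN).

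The genes around the ligase could be named only where the study's own tables pair an array row with a symbol. These tables hold genes picked as changed on the same samples, so no share of a list can be given and the changes below are not independent evidence of a direction. A name was found for 24 of the 109 genes of the pathway lists. Unless another comparison is named, values are log2 differences between PIM-Pd and Control with limma adjusted p. Of the factors that switch cullins on by attaching NEDD8, DCUN1D5, which helps to attach it, fell by 0.62 (adjusted p = 0.0036). NAE1, a subunit of the NEDD8-activating enzyme, fell by 0.56 (adjusted p = 0.017), and this call was lost without Control replicate 1 (0.0879), Control replicate 3 (0.0569) or PIM-Pd replicate 3 (0.0699). Named after their values were seen, since the block changed their calls, UBE2M, which carries NEDD8 to the cullin, and COPS2, a subunit of the complex that removes it, differed by -0.56 and -0.44. UBE2M had an adjusted p of 0.12 in the unpaired fit and 0.0085 with the replicate number as a block, and COPS2 had 0.069 and 0.047.

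Other receptors that compete with cereblon for DDB1 moved in both directions. DCAF6 rose by 0.77 (SE 0.11, adjusted p = 0.00043), from 7.92, 7.96 and 7.98 in Control to 8.76, 8.76 and 8.65 in PIM-Pd, and stood at 8.70, 8.62 and 8.65 in Pd. DCAF1, a receptor with many cellular clients, fell by 0.92 (SE 0.20, adjusted p = 0.0096), with 6.37, 6.67 and 6.63 in Control and 5.19, 6.08 and 5.65 in PIM-Pd. Its lowest array was PIM-Pd replicate 1, and without that array the fall was 0.69. DCAF13, a receptor that also takes part in ribosome assembly, fell by 0.54 (adjusted p = 0.011), and this call was lost without Control replicate 1 (0.0523) or PIM-Pd replicate 2 (0.0504). DTL, a further receptor on the list that the limit of 3 genes had left out, fell by 0.57. Its adjusted p was 0.0448 in the unpaired fit and 0.0212 with the replicate number as a block.

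Further genes were listed as cereblon substrates with some drug of this class, not necessarily pomalidomide. Of these, the zinc finger gene PATZ1 fell by 0.89 (SE 0.14, adjusted p = 0.00090). GSPT1, a translation termination factor, fell by 0.56 (SE 0.11, adjusted p = 0.0044). The zinc finger gene ZNF827 rose by 0.63 (adjusted p = 0.015), and this call was lost without Control replicate 1 (0.0700) or PIM-Pd replicate 1 (0.0671). ZBTB39, also on this list, was 0.30 higher and not called (adjusted p = 0.54). In Pd against Control it was called, at 0.81 (limma adjusted p = 0.0467). SLC16A1, a lactate transporter whose protein associates with cereblon, fell by 0.56 (adjusted p = 0.0044). The casein kinase paralogue CSNK1G3 was 0.52 higher, with an adjusted p of 0.0513 in the unpaired fit and 0.0242 with the replicate number as a block. Some of these differences were also seen with PIM447 alone, where no row was called. In PIM against Control, PATZ1 differed by -0.75, GSPT1 by -0.30, ZNF827 by 0.26, SLC16A1 by -0.17 and CSNK1G3 by 0.42 (limma adjusted p from 0.45 to 0.86). PIM-Pd and PIM differed by -0.14 for PATZ1 and by -0.26 for GSPT1.

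**Figure D4:**
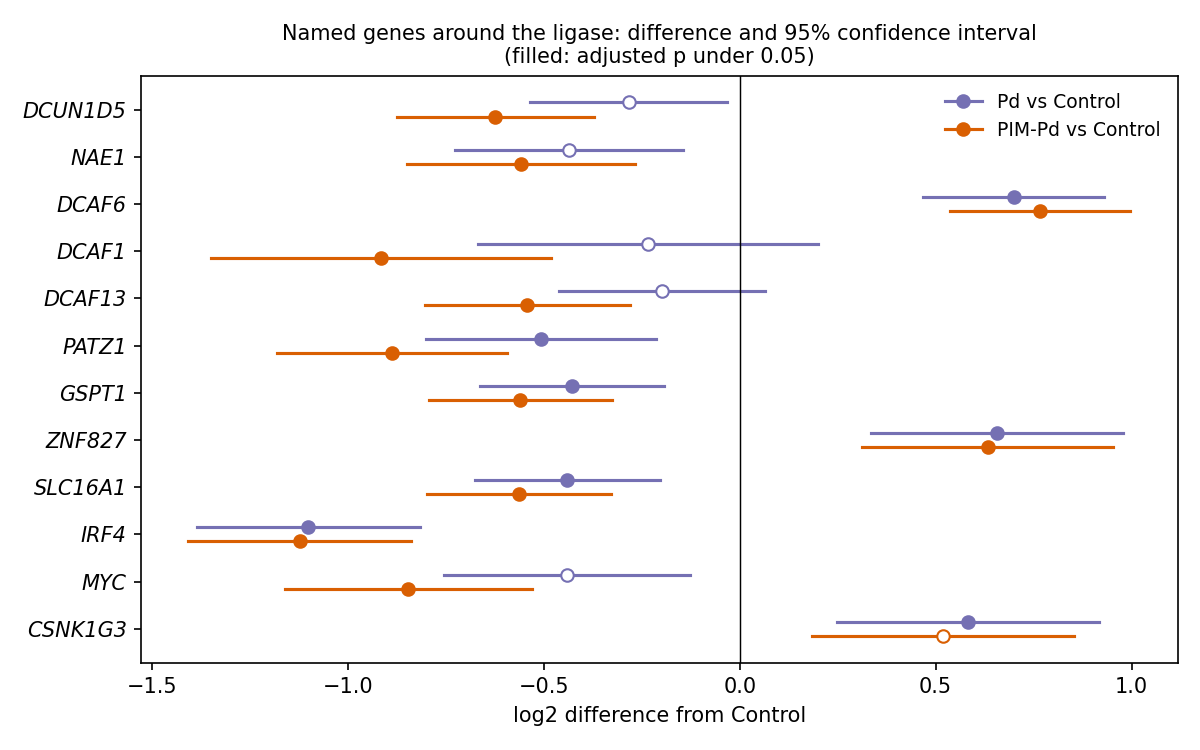
Log2 difference from Control (horizontal axis) in Pd and in PIM-Pd of the 12 named genes around the ligase, with the 95% confidence interval from limma as a line and filled points where the adjusted p over all rows was under 0.05. DCAF6 is 0.70 and 0.77 above Control in Pd and PIM-Pd, and IRF4 lies 1.10 and 1.12 below it.

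IRF4 and MYC, which myeloma cells need for growth and which are known to fall when Ikaros and Aiolos proteins are lost, went the other way from IKZF1 and IKZF3. IRF4 was 9.94, 10.24 and 10.02 in Control, 8.90, 9.03 and 8.96 in Pd, and 9.01, 8.92 and 8.89 in PIM-Pd. It fell by 1.10 on the log2 scale in Pd (limma adjusted p = 0.00019) and by 1.12 in PIM-Pd (limma adjusted p = 0.00012). The groups with Pd lay wholly below those without it, as they lay wholly above them for IKZF1.

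MYC was 9.21, 9.65 and 9.59 in Control, 9.17, 9.48 and 9.69 in PIM, 9.04, 9.10 and 8.99 in Pd, and 8.50, 8.76 and 8.66 in PIM-Pd. It fell by 0.85 in PIM-Pd (SE 0.15, limma adjusted p = 0.0020). In Pd the difference was -0.44, with a limma adjusted p of 0.11 in the unpaired fit and 0.0475 with the replicate number as a block.

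**Figure D5:**
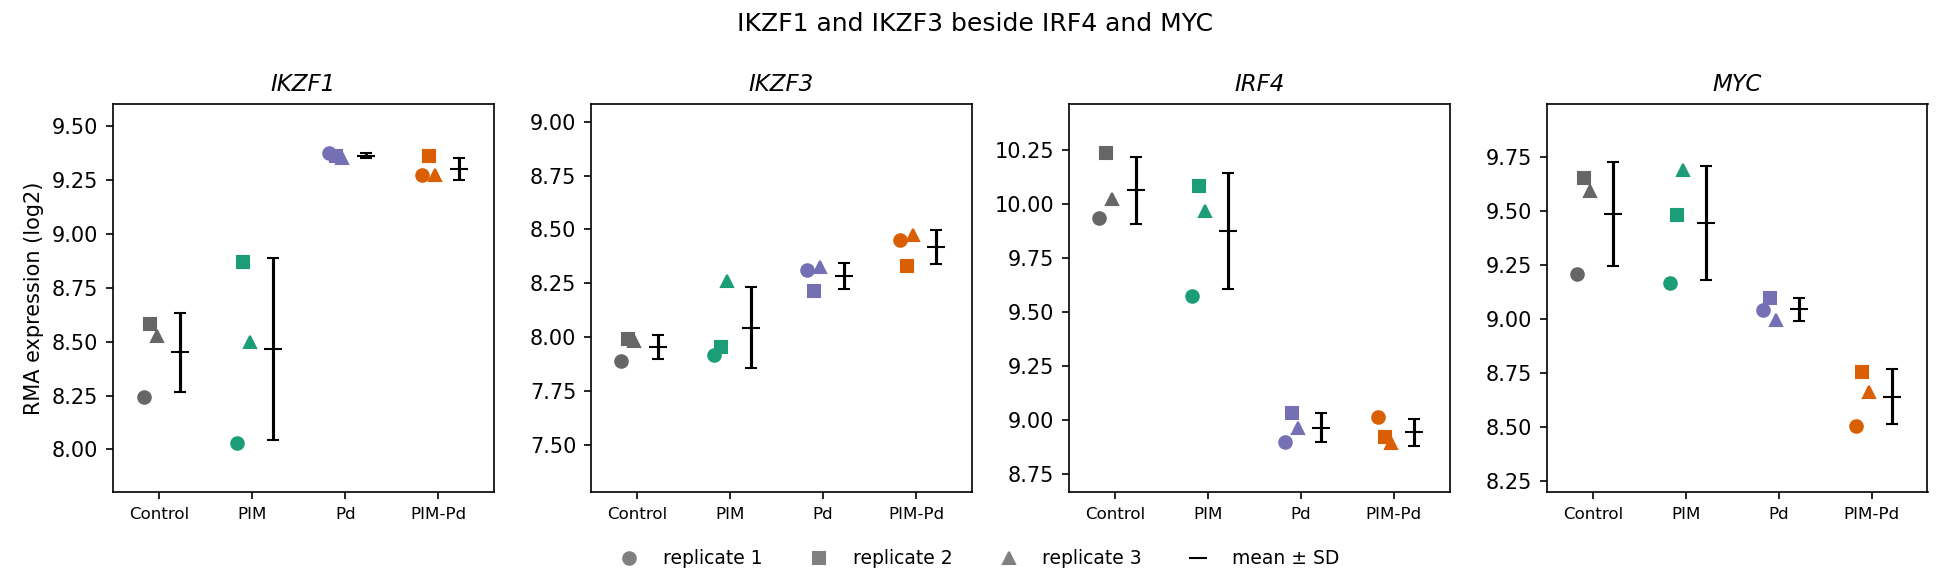
RMA expression on the log2 scale (vertical axes, each spanning the same number of log2 units) of IKZF1, IKZF3, IRF4 and MYC in the 4 groups, with one symbol per array and the mean ± SD of 3 arrays beside it. Where IKZF1 is at 9.27 or higher, in the Pd and PIM-Pd arrays, IRF4 is at 9.03 or lower.

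The rows most like each called member were found by Pearson correlation over the 12 arrays, among the 1912 other rows with a name. This describes patterns over 4 groups and arrays that all rows share, with no test. CRBN was most like SKIL (r = 0.95), NFKBIZ (0.94) and PHF3 (0.94). IKZF1 was most like IGSF11 (0.97), PIP5K1C (0.97) and MR1 (0.96), and IKZF3 was most like ST8SIA4 (0.97), TTC12 (0.97) and CCR2 (0.97).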

How the data were processed

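RNA of 12 MM.1S cultures had been hybridised to Clariom S human arrays. The authors deposited log2 values, normalized by RMA in the R package oligo (version 1.44.0, R 3.5.0, per the labels' processing notes) with a custom probe file that groups probes by Ensembl gene. The genome build is not given in the sources used here. The values are relative within an array set, hold no depth or detection call, and their precision is limited by 3 arrays a group. Groups were taken from the labels.

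From these values, 5 comparisons were fitted in R 4.3.3 with limma 3.58.1 (lmFit and eBayes) to all 17710 rows and 12 arrays, and rows were called at an adjusted p under 0.05 after Benjamini-Hochberg adjustment over all rows. The study's own test, the SAM method, was not run. The fit was tested on simulated data. The labels name replicate numbers as pairs, and the study describes independent experiments that held every condition. Deviations from group means correlated between -0.10 and 0.30 for same-numbered arrays, over 0.1 in 9 of 18 pairs. The main fit was unpaired, as the methods name no pairing in the test, with the number as a block as an alternative. Other alternatives were a fit to only the 2 groups compared, a filter on rows under the 25th percentile, median centring, quantile normalization, other variance priors, a fold of 2, and leaving out each array.

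The members and lists were chosen with earlier results of these data known. Symbols came from the list itself for the members and otherwise from the study's tables (names only), for 1913 of 17710 rows. Named genes were all members and, from each list, up to 3 with the smallest adjusted p among those called in PIM-Pd against Control, plus the casein kinase 1 paralogues, Ikaros paralogues and CUL4B where named. CUL4B and the Ikaros paralogues IKZF4 and IKZF5 had no named row. UBE2M, COPS2, DTL and ZBTB39 were added outside this rule, after their values were seen. Promoters were read from RefSeq (GRCh38.p14), and 8 of the 9 genes matched.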

Additional observations from a re-analysis of the deposited data

How the results depend on the processing

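Member by member, 268 of 275 differences from settings other than leaving out an array, and 458 of 480 from leaving out 1 array, kept their direction and their side of the threshold. Most of these differences were not called in the main fit, so the counts say little about the calls. Of the calls against Control, those of IKZF1 and CRBN held in all 19 alternative fits and that of IKZF3 in 16. The call of IKZF1 in PIM-Pd against PIM held in 18. With the replicate block, 1181 rows were called in Pd against Control and 1934 in PIM-Pd against Control, against 960 and 1671 without it. The block changed 2 member calls, in CUL4A (-0.42, adjusted p = 0.0412) and in CRBN against PIM (0.36, adjusted p = 0.0421), and no other call of a member. It raised the members called in PIM-Pd against PIM from 1 to 2. Requiring a fold of 2 as well left 191 rows in Pd against Control, 255 in PIM-Pd against Control, 1 in PIM-Pd against Pd and 173 in PIM-Pd against PIM, and 0 members in each of these. A fit to the 2 groups alone gave 1 row in PIM-Pd against Pd, and 455 rows (against 1003) and 0 members in PIM-Pd against PIM. For PIM-Pd against Pd, where 14 rows were called, quantile normalization gave 8, an intensity trend 25 and a robust prior 8. The cause was not tested.

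Leaving out 1 array gave 497 (without Pd replicate 3) to 1049 rows in Pd against Control, 1096 (without Control replicate 3) to 1771 in PIM-Pd against Control, 2 (without Pd replicate 3) to 15 in PIM-Pd against Pd, and 648 (without PIM-Pd replicate 3) to 953 in PIM-Pd against PIM. In Pd against Control, leaving out Control replicate 1 (522), Pd replicate 1 (520) or Control replicate 3 (608) also moved the count by over 1.5 times. In PIM-Pd against Pd it fell from 14 to between 2 and 8 rows without any one array other than PIM replicate 2 and PIM-Pd replicate 2. Members called ranged from 2 to 4 in PIM-Pd against Control and from 1 to 2 in PIM-Pd against PIM.

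No member value that changed sign was called. Median centring gave -0.018 for IKZF1 in PIM, -0.011 for DDB1 in Pd and -0.029 for RBX1 in PIM-Pd, each against Control, and quantile normalization gave 0.0066 for RBX1 in PIM-Pd against Pd. Leaving out 1 array gave, for PIM against Control, -0.19 to 0.23 for IKZF1, -0.19 to 0.072 for CSNK1A1, -0.013 to 0.15 for IKZF2 and -0.018 to 0.15 for IKZF3. For Pd against Control it gave -0.079 to 0.075 for DDB1 and -0.017 to 0.14 for RBX1. RBX1 ran from -0.051 to 0.12 in PIM-Pd against Control and from -0.13 to 0.077 against Pd, and DDB1 from -0.28 to 0.063 in PIM-Pd against PIM.

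For the named genes of the lists in Pd against Control, over 19 alternative fits, PATZ1 was called in 9, GSPT1 and SLC16A1 in 12, ZNF827 in 16 and CSNK1G3 in 7, while DCAF6 and IRF4 were called in all 19.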
